A study of Drosophila melanogaster with 8 samples.

Results

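The Hox genes of Drosophila melanogaster lie in a pair of clusters on chromosome arm 3R, the Antennapedia complex (ANT-C) and the bithorax complex (BX-C). Bicoid (Bcd) peaks were taken as members when they touched, by at least 1 bp, fixed windows of 380 kb for the ANT-C (chr3R:2470000-2850000, build dm3) and 330 kb for the BX-C (chr3R:12480000-12810000). The members were 109 of the 6541 deposited peaks. Of these, 62 came from the wild-type list of 3891 peaks and 47 from the zelda mutant list of 2650 peaks. The rule used position only, so peak number, strength and overlap were free to vary. All members lay wholly inside their window.

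Hox genes encode homeodomain transcription factors that give the segments of the embryo their identity, and their order on the chromosome follows the order of the body regions they control. The ANT-C holds lab (intercalary segment of the head and midgut), pb (adult mouthparts), Dfd (mandibular and maxillary segments), Scr (labial segment and prothorax) and Antp (thorax). It also holds homeobox genes that lost the segment identity role, zen for the amnioserosa and dorsal ectoderm and ftz for the pair-rule pattern, together with bcd itself. The BX-C holds Ubx for the posterior thorax, abd-A for the anterior and middle abdomen and Abd-B for the posterior abdomen. Bcd is a homeodomain protein translated from maternal mRNA at the anterior pole, where it activates patterning genes in a graded manner. Zelda is a maternal zinc finger protein that binds the enhancers of early zygotic genes across the whole embryo and is known for making them accessible.

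All 10 listed genes were matched by symbol in the RefSeq gene table of Release 6, which was used only for the order of genes. With rising position the ANT-C genes run lab, pb, zen2, zen, bcd, Ama, Dfd, Scr, ftz, Antp, with a group of cuticle protein genes between lab and pb. The BX-C genes run Ubx, abd-A, Abd-B. The table lists 20 protein-coding genes from lab to Antp, and 6 from Ubx to Abd-B. It also places the microRNA genes mir-993 and mir-10 on either side of Dfd, and mir-iab-4 and mir-iab-8 between abd-A and Abd-B. Its positions are those of another build than the peaks, so no peak was given to a gene, and members are named by position. A dm3 genome was not used here, and no peak sequence is shown.

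The samples were whole embryos of Drosophila melanogaster, collected from 1 to 3 h after egg laying, either wild type or zelda mutant. The zelda allele, and whether maternal Zelda was removed, are not given in the sources used here. The 8 samples formed 4 groups of 2 replicates, a Bcd immunoprecipitation (ChIP) and an input without antibody in each genotype, and the antibody was a rabbit serum raised against the full Bcd protein. Each genotype has 1 deposited peak list that joins both replicates, so no spread between replicates could be had and no p-value is given. Without duplicates, the wild-type ChIP counted 39154546 tags and the mutant ChIP 10060479, a ratio of 3.89, and the controls held 22487837 and 17035242. A deeper library passes a fixed p cutoff with more and longer peaks, so peak numbers of the genotypes are not a measure of binding, and intervals below cover counting error only.

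Bcd peaks were packed more densely in both Hox complexes than on the rest of arm 3R. In wild type the ANT-C held 29 peaks, or 7.63 per 100 kb (exact Poisson 95% interval 5.11 to 11.0). The BX-C held 33, or 10 per 100 kb (6.88 to 14.0). The rest of 3R held 632 peaks, or 2.32 per 100 kb (2.15 to 2.51). Peaks covered 18.6% of the ANT-C window and 19.8% of the BX-C window, against 6.18% of the remaining arm. The intervals treat peaks as independent, which neighbouring peaks need not be, and the arm was measured up to its last peak end.

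The same order was seen in the zelda mutant list. It held 21 ANT-C peaks, or 5.53 per 100 kb (3.42 to 8.45), and 26 BX-C peaks, or 7.88 per 100 kb (5.15 to 11.5). The rest of 3R held 441, or 1.62 per 100 kb (1.47 to 1.78). Called peaks covered 7.30% of the ANT-C window, 10.5% of the BX-C window and 2.60% of the remaining arm. In each list the intervals of the complexes overlapped each other and lay apart from that of the rest of the arm.

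**Figure D1:**
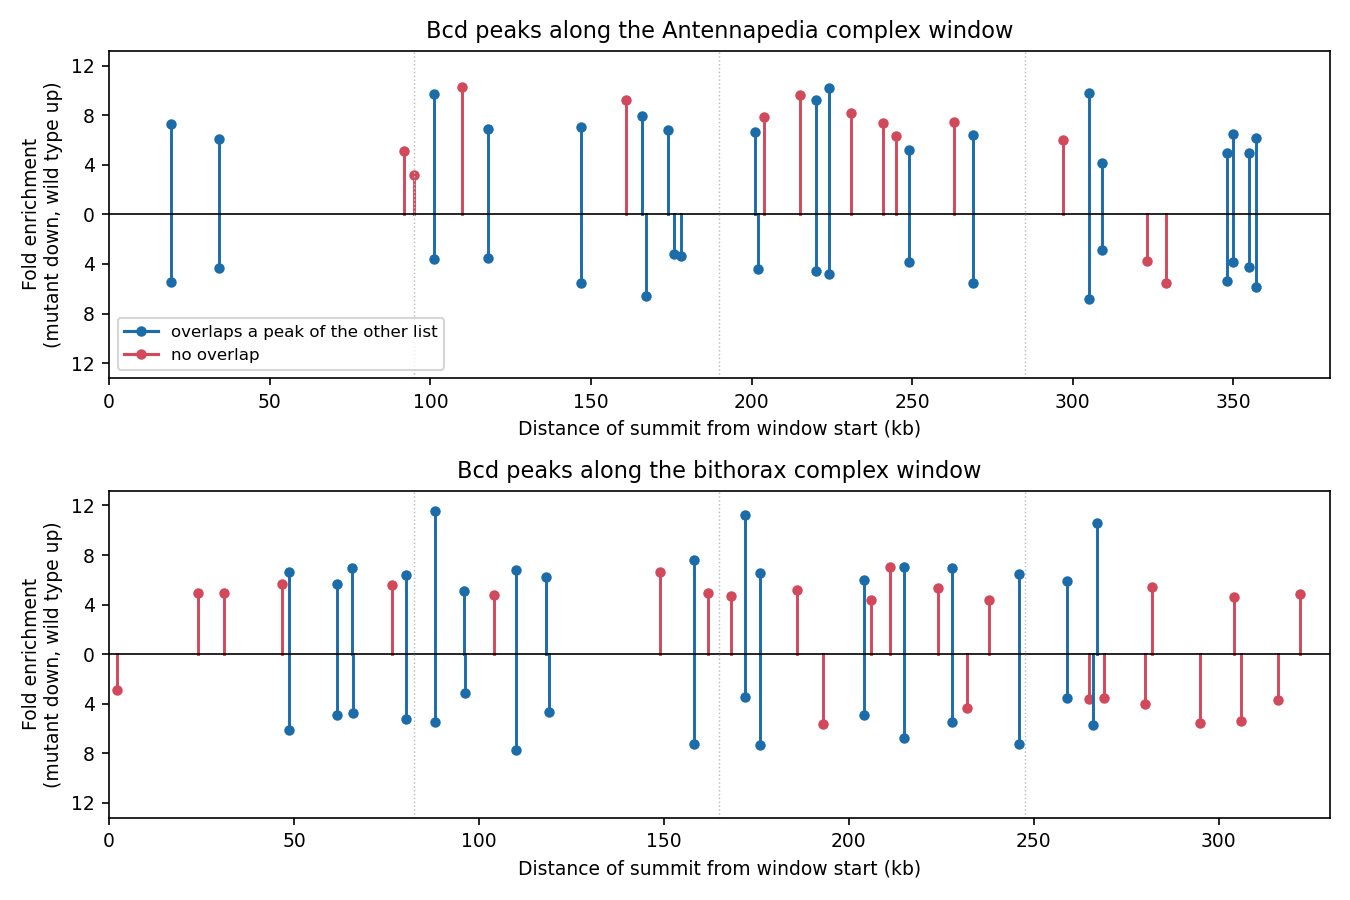
Bcd peaks along the ANT-C (top) and BX-C (bottom) windows. The horizontal axis is the distance of the summit from the window start in kb, and each stem is 1 peak with the authors' fold enrichment, wild type upward and zelda mutant downward. Blue stems overlap a peak of the other list and red stems do not, and dotted lines part the window into 4 equal sections. The red wild-type stems of the ANT-C reach 10.25, while those of the BX-C reach 7.02. Of the red mutant stems, both of the ANT-C and 6 of the 9 of the BX-C lie in the last section. That section holds 8 mutant stems, red and blue, in each complex.

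The wild-type list gave ANT-C peaks a higher median strength than BX-C peaks, with intervals that overlapped. The authors' fold enrichment, a ratio of ChIP tags to the background that the control predicts nearby, had a median of 6.92 in the ANT-C (95% binomial interval of the median 6.14 to 7.95, range 3.20 to 10.25). In the BX-C the median was 5.88 (5.19 to 6.63, range 4.34 to 11.59), and it was 5.33 over all arm peaks. The median tag density was 544 tags per kb of called peak in the ANT-C and 476 in the BX-C. Scaled to 1000000 ChIP tags of its list (RPKM), it was 13.9 (12.8 to 15.7) and 12.2 (10.7 to 13.0), against 11.6 over all arm peaks. The false discovery rate estimated by the peak caller (FDR) was at most 5% for 18 of the 29 ANT-C peaks, or 62.1%, and for 9 of the 33 BX-C peaks, or 27.3%. Over all arm peaks it was 35.3%.

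The mutant list did not place the complexes in the same order, and the intervals of its median folds overlapped widely. Its median fold enrichment was 4.42 in the ANT-C (3.76 to 5.54) and 5.09 in the BX-C (4.00 to 5.65), against 3.97 over all arm peaks. The tag density was the same for both complexes to the digits given, with a median of 158 tags per kb, or 15.7 RPKM, against 13.6 RPKM over all arm peaks. An FDR of at most 5% was reached by 3 of 21 ANT-C peaks and 3 of 26 BX-C peaks, against 13.2% of all mutant arm peaks. The fold enrichments of the lists come from separate ChIP and control libraries scaled by the caller to different depths. A lower fold in the mutant list therefore does not by itself measure a loss of Bcd at a site.

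Many wild-type peaks of each complex had no counterpart in the mutant list. In the ANT-C, a mutant peak was met by 18 of 29 wild-type peaks, or 62.1% (44.0 to 77.3, Wilson 95% interval). In the BX-C it was 17 of 33, or 51.5% (35.2 to 67.5). Of all wild-type arm peaks 45.5% did so, and 47.9% of those on 3R outside the windows, and both backgrounds lay inside both intervals. The ANT-C share stayed the higher one with summits at least 20 kb inside the window, at 60.7% and 53.1%. It also did so with windows 50 kb longer at each end (59.4% and 54.3%). The same held for a reciprocal overlap of 50% (44.8% and 39.4%) and for summits within 200 bp (55.2% and 45.5%). The order turned round with the settings that follow, by little where lists were cut to equal numbers. With a score of at least 100 in both lists the shares were 41.7% in the ANT-C and 63.6% in the BX-C. A further setting kept wild-type peaks only where the score times 0.257, the mutant over wild-type depth ratio, stayed at 50 or more. The shares were then 65.0% and 78.6%. Lists cut to equal numbers of arm peaks by score gave 62.5% and 63.6%, and an FDR of at most 5% in both lists gave 11.1% and 22.2%.

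In the opposite direction the complexes lay further apart. Of the 21 mutant ANT-C peaks, 19 overlapped a wild-type peak, or 90.5% (71.1 to 97.3). Of the 26 mutant BX-C peaks, 17 did, or 65.4% (46.2 to 80.6). The background over all arm peaks was 74.4%, and 73.9% on 3R outside the windows, which lay inside both intervals. With a score of at least 100 in both lists, the shares were 76.9% and 73.7%, and little of the difference remained. The difference between the complexes was not tested, since peaks are not replicates.

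**Figure D2:**
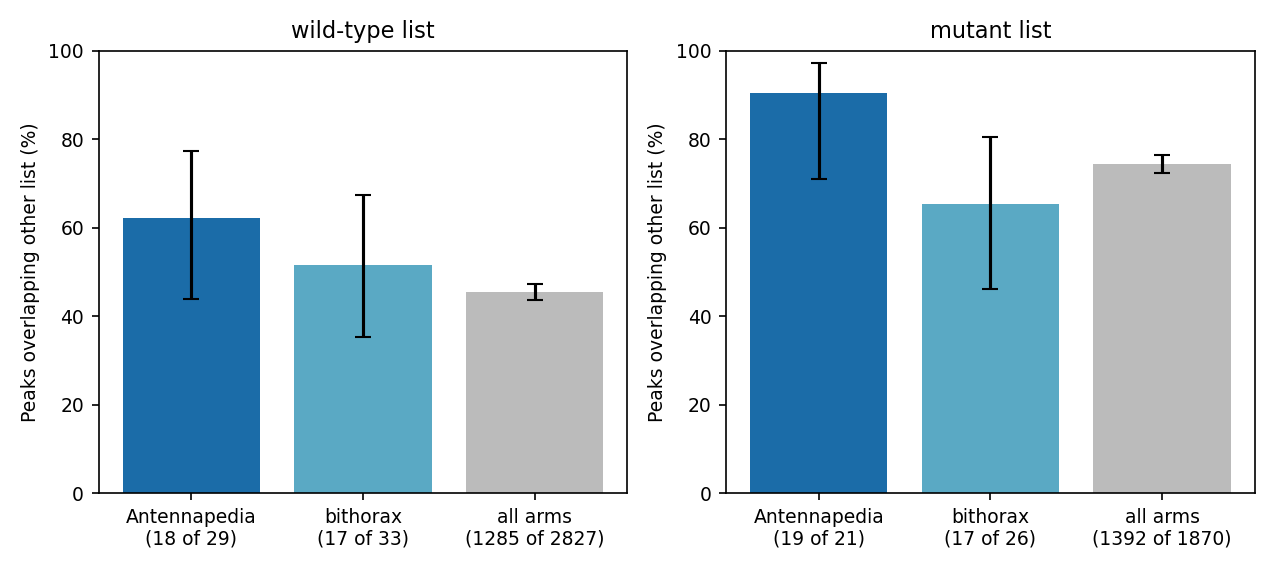
Share of peaks (vertical axis, percent) that touch the other genotype's list (1 bp or more), for the ANT-C, the BX-C and all chromosome arms. The left panel shows the wild-type list and the right panel the mutant list, with bars from 0, the counts under each bar and Wilson 95% intervals as error bars. The intervals of the complexes overlap in both panels, with 90.5% and 65.4% of mutant peaks shared.

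Merging overlapping peaks of both lists gave 31 separate Bcd regions in the ANT-C and 42 in the BX-C. Of the ANT-C regions, 18 were found in both genotypes, or 58.1% (40.8 to 73.6), 11 in wild type only, and 2 in the mutant only, or 6.45% (1.79 to 20.7). Of the BX-C regions, 17 were found in both, or 40.5% (27.0 to 55.5), 16 in wild type only, and 9 in the mutant only, or 21.4% (11.7 to 35.9). On all arms 38.8% of merged regions held both, 46.7% wild-type and 14.5% mutant peaks only. The share of regions found in both genotypes was thus near the background in the BX-C. In the ANT-C its interval lay just above the background, from 40.8% against 38.8%. Merged regions were not taken under other settings. With a score of at least 100, the share of wild-type ANT-C peaks that overlap a mutant peak fell to 41.7%.

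In the ANT-C the wild-type-only peaks did not have the lower median strength. Of the 8 wild-type ANT-C peaks with the highest fold, 4 were shared, against 7 of 8 in the BX-C. A share for arm peaks of like fold was not taken. Wild-type-only ANT-C peaks had a median fold of 7.46 and a median score (the negative log10 of the MACS p-value, multiplied by 10) of 440, and shared ones had 6.74 and 335. At a score of 500 or more, 7 of 10 ANT-C and 5 of 6 BX-C peaks were shared, against 63.5% on all arms. In the BX-C the wild-type-only peaks were the weaker ones, with a median fold of 4.94 against 6.64 and a median score of 91.0 against 232. Over all arm peaks the wild-type-only peaks were also weaker, with a median fold of 4.90 against 5.95. In the ANT-C the folds of the groups overlapped widely, from 3.20 to 10.25 for wild-type-only and from 4.15 to 10.18 for shared peaks. The 11 and 18 peaks of the ANT-C allow no firm order.

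**Figure D3:**
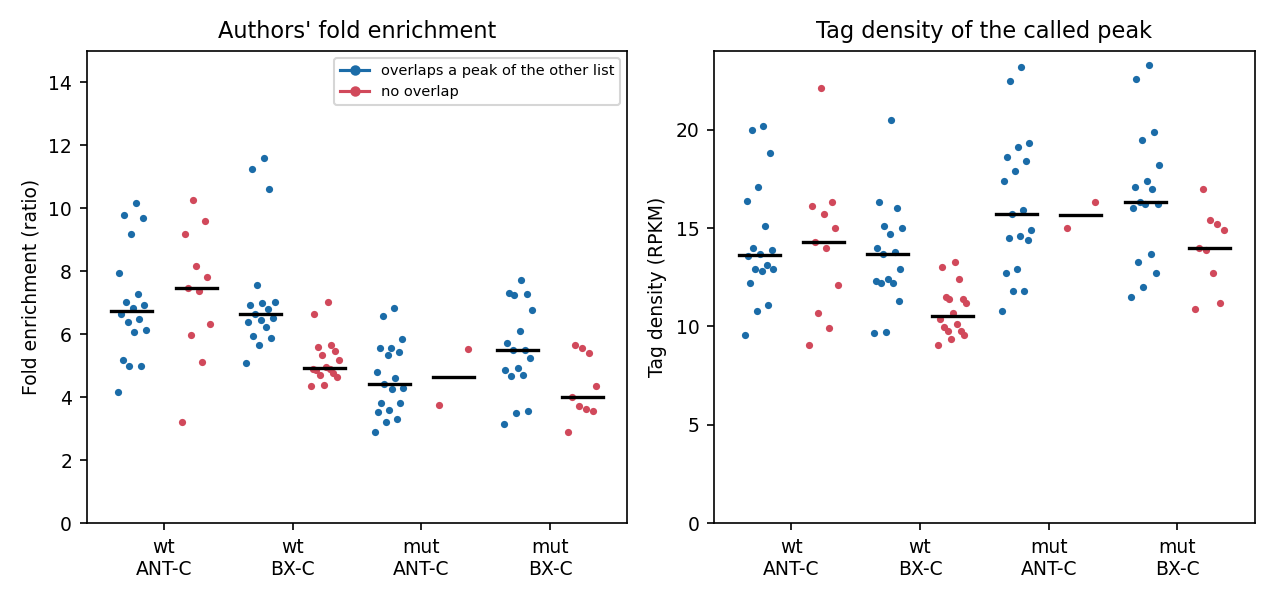
Strength of every member peak by list (wt, wild type; mut, zelda mutant) and complex. The left panel gives the authors' fold enrichment and the right panel the tag density of the called peak in RPKM. Each point is 1 peak, blue where it overlaps a peak of the other list and red where it does not, and black lines are medians. In the wild-type ANT-C the red median (7.46) lies above the blue one (6.74), and in the wild-type BX-C it lies below (4.94 against 6.64).

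The ANT-C peak with the most tags per kb was absent from the mutant list. It lay at chr3R:2578591-2582341, where 3249 tags were counted (exact Poisson 95% interval 3138 to 3363), with a fold of 10.25, a score of 3118.29 and a tag density of 22.1 RPKM. Its score was the third highest of the 2827 wild-type arm peaks. The nearest mutant peak lay 5.35 kb away. Both flanking wild-type peaks, at chr3R:2569118-2571440 and at chr3R:2586487-2589693, were shared, with wild-type folds of 9.68 and 6.92. Their mutant partners had the fewest tags of the 21 mutant ANT-C peaks, 108 and 109, and folds of 3.60 and 3.54.

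A further strong wild-type-only peak lay at chr3R:2682421-2686534, where the fold was 9.60, the score 1505.37 and the tag count 2623 (2524 to 2725). No mutant peak came nearer than 2.71 kb. It was followed by a shared pair of wild-type peaks, at chr3R:2688898-2692359 (fold 9.19) and at chr3R:2693170-2695883 (fold 10.18). Their mutant partners kept close summits, 130 and 11 bp away, with folds of 4.61 and 4.81. After that pair came 3 wild-type-only regions in a row, spanning 14.8 kb at chr3R:2700591-2715340, with folds of 8.16, 7.36 and 6.33. This was the longest run of wild-type-only regions in the ANT-C.

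The other strong wild-type-only ANT-C peaks lay at chr3R:2629848-2633138, with fold 9.19 and tag count 1802 (1720 to 1887), and at chr3R:2673186-2675058, with fold 7.83 and tag count 1101 (1037 to 1168). The nearest mutant peaks lay 2.70 and 0.869 kb away. The remaining wild-type-only members, starting at 2561108, 2563201, 2732502 and 2766836, had folds of 5.12, 3.20, 7.46 and 5.96. In all, 1 of the 11 wild-type-only ANT-C peaks had a mutant peak within 1 kb, or 9.09%, against 4.93% on all arms.

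The BX-C held 3 wild-type peaks that stood well above its others, and all were shared with the mutant. The strongest lay at chr3R:12567129-12571737, where the fold was 11.59, the score 1819.27 and the tag count 2882 (2778 to 2989). The next lay at chr3R:12651376-12653487, with fold 11.26, score 1563.34 and tag count 1694 (1614 to 1777). The third, at chr3R:12745707-12748020, showed fold 10.61 and tag count 1477 (1403 to 1554). The fold of the next BX-C peak was 7.57.

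None of these 3 sites was among the 5 highest folds of the mutant BX-C list. The mutant partners of the 3 had folds of 5.49, 3.49 and 5.73, with 298, 154 and 171 tags. By fold they ranked 306, 1242 and 257 among the 1870 mutant arm peaks, so the first and the third lay above the mutant BX-C median of 5.09 and the second below it. Peaks picked for a high wild-type fold are favoured in the wild-type list, so the gap is a description. The summits of the first and second pair lay 51 and 18 bp apart. In the third pair they lay 1054 bp apart.

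Wild-type-only BX-C peaks did not reach the folds of the 3 strongest wild-type peaks. The highest lay at chr3R:12690183-12691818, with fold 7.02, score 359.76 and tag count 835 (779 to 894). A mutant peak lay 2.89 kb away. Then came chr3R:12627959-12629797 (fold 6.63), chr3R:12526026-12527566 (5.66), chr3R:12554811-12557836 (5.59) and chr3R:12761532-12762725 (5.46). The lowest of the 16 had a fold of 4.34, and their median density was 10.5 RPKM, against 13.7 RPKM for the shared BX-C peaks.

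The 5 mutant BX-C peaks with the highest fold all overlapped a wild-type peak whose fold was above the wild-type BX-C median of 5.88 and below those of the 3 strongest. They lay at chr3R:12589088-12590584 (fold 7.71, 351 tags, interval 315 to 390), at chr3R:12655371-12656518 (7.31), at chr3R:12723758-12726159 (7.27), at chr3R:12637056-12638372 (7.25) and at chr3R:12694706-12695803 (6.78). The wild-type folds at the same places were 6.81, 6.53, 6.45, 7.57 and 7.01. The peak from 12723758 had the most tags of the mutant members, 471 (429 to 516), and the highest mutant score, 875.63. In the ANT-C the 5 strongest mutant peaks had folds of 5.57 to 6.82 and were shared too. The first was at chr3R:2774255-2775719, with 284 tags (252 to 319) and a wild-type fold of 9.80. Strong mutant peaks were mostly shared on all arms too, 85.4% at scores from 100 to under 500 and 91.6% at 500 or more.

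Where each list had a single peak at a place, there were 17 pairs in each complex. The mutant fold was higher in 1 ANT-C pair, or 5.88% (1.05 to 27.0), and in 3 BX-C pairs, or 17.6% (6.19 to 41.0), against 10.3% of the single pairs on all arms. The ANT-C pair was the wild-type peak starting at 2816478, where the mutant fold was 5.35 and the wild-type fold 4.98. The BX-C pairs were those with mutant peaks from 12589088, 12655371 and 12723758. The median difference, mutant minus wild type, was -1.77 in the ANT-C and -1.14 in the BX-C, and -1.45 in the pairs of the other arm regions. Tag density in RPKM was higher in the mutant for 11 ANT-C and 14 BX-C pairs, or 64.7% (41.3 to 82.7) and 82.4% (59.0 to 93.8). The background of 76.3% on all arms lay inside both intervals. The mutant peak was shorter in all 17 pairs of each complex, so a higher density does not by itself measure more Bcd. Per 1000000 ChIP tags, whole-peak counts were lower in the mutant in some of these higher-density pairs and higher in others. For the wild-type peak starting at 2488227 they were 35.8 in wild type and 20.3 in the mutant. For that starting at 12723683 they were 37.3 and 46.8.

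**Figure D4:**
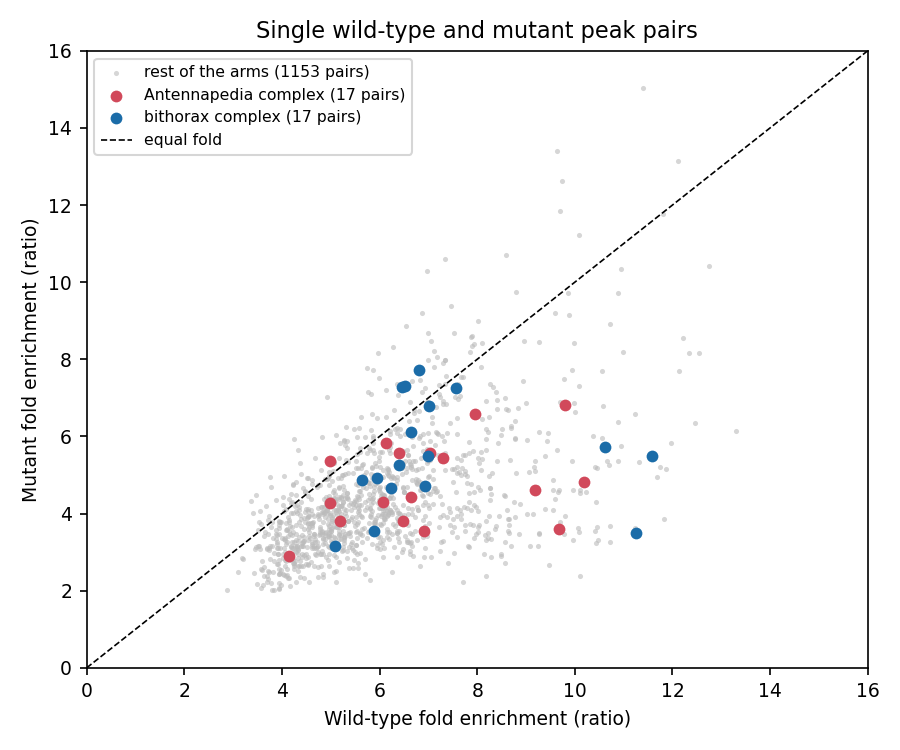
Authors' fold enrichment (ratio) of single peak pairs, wild type on the horizontal and mutant on the vertical axis. Each point is 1 pair, red for the 17 of the ANT-C, blue for the 17 of the BX-C and grey for the other pairs on the arms, and the dashed line marks equal folds. A single ANT-C pair and 3 BX-C pairs lie above the line, and the 3 BX-C pairs with wild-type folds from 10.61 to 11.59 lie far below it.

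Paired summits lay close together. The median distance was 53 bp in the ANT-C and 26 bp in the BX-C, against 47 bp elsewhere on the arms, and 16 of 17 and 15 of 17 pairs lay within 200 bp, against 79.9% of the single pairs on all arms. The farthest pair of the BX-C, 1276 bp apart, joined the wild-type peak starting at 12597227 with the mutant peak from 12598572. The mutant peak was the shorter one in all 17 ANT-C pairs and all 17 BX-C pairs, which is near the background of 95.5% of single pairs on all arms. The median length ratios, mutant over wild type, were 0.680 and 0.814, against 0.758 elsewhere on the arms. The widest member, a wild-type ANT-C peak of 8753 bp at chr3R:2640536-2649288 (fold 6.83), held 2 separate mutant peaks with folds of 3.20 and 3.32. Their summits lay 2233 and 4442 bp from the wild-type summit. The widest BX-C peak, 7214 bp at chr3R:12581431-12588644 (fold 4.77, tag count 3758), held none, and the nearest mutant peak began 0.444 kb beyond it.

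Mutant-only Bcd peaks numbered 2 in the ANT-C and 9 in the BX-C. Both of the ANT-C and 6 of the BX-C lay in the last section of their window. That section held 8 of all 21 mutant ANT-C peaks and 8 of all 26 mutant BX-C peaks. As shares of merged regions the mutant-only ones made 6.45% and 21.4%, and the 14.5% of all arms lay inside both intervals. The ANT-C pair lay at chr3R:2791921-2793095, with fold 3.76 and tag count 177 (152 to 205), and at chr3R:2798601-2799804, with fold 5.54 and tag count 198 (171 to 228). Wild-type peaks were 12.2 and 16.7 kb away. In the BX-C the peak with the highest fold of the 9 lay at chr3R:12672591-12673700, with fold 5.65 and tag count 155 (132 to 181). Next came chr3R:12773972-12775033, with fold 5.55 and tag count 165 (141 to 192), and chr3R:12785657-12786802, with fold 5.40 and tag count 175 (150 to 203).

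The other BX-C members of this kind had lower folds. They started at 12711842, 12759055, 12794893, 12744277, 12748901 and 12480830 and had folds of 4.37, 4.00, 3.72, 3.63, 3.55 and 2.90. The median fold over all mutant arm peaks was 3.97. The FDR of the 9 ran from 9.5% to 13.51%. A wild-type peak lay within 1 kb of 4 of the 9, or 44.4%, against 11.3% of mutant-only peaks on all arms. The peaks from 12744277 and 12748901 lay on either side of the strong wild-type peak starting at 12745707, at 0.293 and 0.881 kb. Among the 16 wild-type-only BX-C peaks, 5 had a mutant peak within 1 kb, or 31.2%, against 4.93% on all arms. Peaks are denser in the BX-C than on the arms, and the part of that density in these shares was not tested.

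Along the ANT-C the merged Bcd regions were fewest in the first section of the window, with 4, and most numerous in the third, with 11. In 4 sections of 95 kb, from low to high position, the wild-type list held 4, 7, 11 and 7 peaks and the mutant list 2, 6, 5 and 8. The third section had the most wild-type-only regions, 6 of its 11, and the first 3 sections had no mutant-only region. In the last section 6 of 9 regions were found in both genotypes. On all arms 46.7% of merged regions held wild-type peaks only and 38.8% held peaks of both lists. The longest stretch with no peak of either list ran 55.3 kb, at chr3R:2505790-2561107. At the high end, 4 regions in a row within 10.9 kb, at chr3R:2816478-2827417, were found in both genotypes.

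The BX-C was filled more evenly in wild type up to the third section. In 4 sections of 82.5 kb, the wild-type list held 8, 8, 12 and 5 peaks, and the mutant list 5, 5, 8 and 8. In the second section all 5 mutant peaks were shared. In the last section 2 of 8 mutant and 2 of 5 wild-type peaks were shared, against 74.4% and 45.5% on all arms. The wild-type share there was thus near the background. Of the 11 regions of that section 6 were found in the mutant only, against 14.5% of merged regions on all arms. The median wild-type density of the last section was 9.75 RPKM, the lowest of the 4 sections, against 11.8 to 12.9 in the others. The longest stretch with no peak of either list was 28.2 kb, at chr3R:12599766-12627958.

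A score under 100 was given to 5 of 29 wild-type ANT-C peaks and to 11 of 33 wild-type BX-C peaks, against 32.1% of all wild-type arm peaks. In each complex 3 of them were shared, against 30.0% of the arm peaks of that class. At scores from 100 to under 500, 8 of 14 ANT-C and 9 of 16 BX-C peaks were shared, against 48.7% on all arms. At 500 or more, 7 of 10 and 5 of 6 were shared, against 63.5%. Among mutant peaks with a score under 100, 7 of 8 in the ANT-C and 2 of 7 in the BX-C lay on a wild-type peak. The ANT-C share of that class was 87.5% (52.9 to 97.8), the BX-C share 28.6% (8.22 to 64.1), and 57.4% of all mutant arm peaks of the class were shared.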

How the data were processed

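Per the submitters' processing notes, the authors used Bowtie2, the build dm3 and MACS 1.4.2. Per the file headers, MACS took 1 ChIP and 1 control file per list, kept at most 1 tag per position, used a p cutoff of 1e-05 and scaled the larger dataset towards the smaller. The step that joined the replicates is not given. The deposited tag count holds whole ChIP tags inside a peak, not normalized. The deposited score is the negative log10 of the MACS p-value, multiplied by 10, the deposited fold is the ratio of ChIP to local background, and the deposited FDR is in percent.

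From these, tags per kb of called peak were computed, also scaled to 1000000 filtered ChIP tags (RPKM). This density depends on the called length. Positions are 1-based, and a summit is the start plus its offset minus 1. Lists were compared by overlap of at least 1 bp, with Wilson, exact Poisson and binomial order-statistic 95% intervals and no test. Simulated lists with known partners were used to test the overlap step. Named peaks were, per complex, the 8 wild-type and 5 mutant peaks of highest fold, up to 8 mutant-only and 5 wild-type-only peaks. Others are named for their position or width, picked after their values were seen. The members and lists were chosen with earlier results of these data known. Tools were pandas 2.3.3, scipy 1.17.1, numpy 2.4.6 and, for figures, matplotlib 3.10.9, under Python 3.11.15.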

Additional observations from a re-analysis of the deposited data

How the results depend on the processing

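Of 72 values under other settings, 55 stayed within 1.5 times the reported count or inside the reported interval and 17 did not. With an FDR of at most 5% in both lists, the ANT-C held 18 wild-type and 3 mutant peaks and the BX-C 9 and 3; the shared shares were 11.1% and 22.2% of wild-type peaks and 66.7% of mutant ANT-C peaks; the density medians were 19.3 and 22.6 for the mutant ANT-C and BX-C and 13.8 for the wild-type BX-C. Fewer peaks remain to be overlapped there by construction. A score of at least 100 left 13 mutant ANT-C peaks and a wild-type ANT-C share of 41.7%. A reciprocal overlap of 50% gave 61.9% for the mutant ANT-C. Wild-type scores scaled to the mutant depth left 14 wild-type BX-C peaks, 78.6% of them shared, and shares of 66.7% and 42.3% for mutant ANT-C and BX-C peaks. For the shifts not made by construction the cause was not tested. The mutant share of the ANT-C was above that of the BX-C under every setting run except the FDR limit, where both were 66.7% of 3 peaks. With a score of at least 100 the shares were close, 76.9% and 73.7%. No paired analysis was possible because each genotype has 1 list that joins its replicates, and leaving out a replicate was not possible for the same reason.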
